A study of Mus musculus with 9 samples.

Results

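The Schlafen genes are a mouse gene family named after the German word for sleeping. The 7 members described here, Slfn1, Slfn2, Slfn3, Slfn4, Slfn5, Slfn8 and Slfn9, were chosen by gene symbol among the 24186 genes of the deposited count table. Each symbol belonged to a single identifier. Poly(A) RNA was sequenced from clones of bone marrow stromal cells from adult C57Bl/6 mice carrying the irtTA-GBD*-TAg transgene, which makes large T antigen when dexamethasone and doxycycline are given. All groups were grown as such conditionally immortalised cells and were kept without either inducer for 3 days before RNA was taken, so none is a primary culture. The 9 libraries formed 3 groups of 3: progenitors with adipogenic potential and no further treatment, the same kind of progenitor after 3 days with interferon-γ (IFNγ, at 10 ng/ml), and progenitors with osteogenic potential. No IFNγ-treated osteogenic library was analysed here, and the libraries carry the numbers 4, 5 and 6 in each group, whose meaning is not given.

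Schlafen proteins share a core domain related to AAA ATPases. Slfn1 and Slfn2 are the short members, Slfn3 and Slfn4 are of intermediate length, and Slfn5, Slfn8 and Slfn9 are long members with a helicase-like carboxy-terminal part. The family is best known from thymocytes, T cells and macrophages, where several members are induced by interferons and where they have been linked to quiescence, to the handling of transfer RNA and to the restriction of viruses. IFNγ signals through the kinases Jak1 and Jak2 to gamma-activated sites in promoters, and type I interferon also acts through Stat2 and Irf9 on interferon-stimulated response elements.

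All members lie in 1 cluster on chromosome 11. In RefSeq's GRCm38.p6 annotation the order is Slfn5, Slfn9, Slfn8, the pseudogene Slfn10-ps, Slfn2, Slfn1, Slfn4, Slfn3 and Slfn14. The count table was made on the older build mm9, so only this order and the sequences below were taken from RefSeq. The 250 bases before the annotated start are shown for Slfn9, Slfn8 and Slfn2, the members with the most reads with IFNγ, and a stretch of 100 bases, beginning 220 before the start, is shown for Slfn5. They are printed 5′ to 3′ on the strand of the gene, and capitals mark a match on either strand to the core of the interferon-stimulated response element, searched as GAAA and GAAA with any 2 bases between them.
Slfn9 (chr11:82991831-82992080, minus strand): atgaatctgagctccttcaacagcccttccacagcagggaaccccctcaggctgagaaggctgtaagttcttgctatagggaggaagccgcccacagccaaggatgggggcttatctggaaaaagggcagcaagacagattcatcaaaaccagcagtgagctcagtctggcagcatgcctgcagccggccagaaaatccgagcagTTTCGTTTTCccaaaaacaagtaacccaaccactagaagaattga
Slfn8 (chr11:83020811-83021060, minus strand): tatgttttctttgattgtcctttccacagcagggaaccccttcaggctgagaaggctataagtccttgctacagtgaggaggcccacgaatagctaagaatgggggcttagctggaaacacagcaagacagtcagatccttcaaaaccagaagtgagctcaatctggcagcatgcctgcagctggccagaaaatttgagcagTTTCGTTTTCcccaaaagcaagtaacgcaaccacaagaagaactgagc
Slfn5 (chr11:82951882-82951981, plus strand): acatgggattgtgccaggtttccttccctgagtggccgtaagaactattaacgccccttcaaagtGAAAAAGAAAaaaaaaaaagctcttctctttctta
Slfn2 (chr11:83064862-83065111, plus strand): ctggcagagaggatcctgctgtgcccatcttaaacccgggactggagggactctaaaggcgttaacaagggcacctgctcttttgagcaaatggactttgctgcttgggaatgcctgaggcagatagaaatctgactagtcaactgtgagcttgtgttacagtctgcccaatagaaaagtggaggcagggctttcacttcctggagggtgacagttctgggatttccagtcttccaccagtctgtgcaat

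The promoters of Slfn8 and Slfn9 were near copies of each other. Aligned over their whole windows they matched at 210 of 262 columns (80.2%), whereas the other 20 pairs of members matched at 45.5 to 53.4%. Both held the same 10 letters, GAAAACGAAA on the strand opposite to the gene, at 45 to 36 bases before the start of Slfn9 and at 48 to 39 before that of Slfn8. Slfn5 held GAAAAAGAAA on its own strand at 155 to 146 bases before the start. No match was found in the windows of Slfn1, Slfn2, Slfn3 and Slfn4. Of the 32851 RefSeq mouse promoter windows of this length, 978 (2.98%) held a match on either strand. The gamma-activated site, searched as TTCNNNGAA, was in 2306 of them (7.02%) and in no window of the 7 members. Such matches describe letters in a window and were not measured as binding.

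Levels are given in CPM, that is counts divided by library size with TMM scaling. Totals ran from 27440089 to 39251602 counts, so a gene with 0 counts could lie anywhere below 0.0764 to 0.109 CPM by counting error alone. Of 11 stromal markers 10 were tested, and Col1a1, Col1a2 and Pdgfrb were well above 100 CPM in every group, while Thy1 was at or near 0 throughout. Other stromal markers were low too: Lepr was below 1 CPM in every library, and Nt5e averaged 1.12, 1.53 and 3.62 CPM in untreated, treated and osteogenic libraries. Eng averaged 2.85, 2.63 and 21.9 CPM, the last with 60.2 CPM in osteogenic library 5. Of 4 adipocyte markers, Adipoq and Plin1 were below 1 CPM in every library, while Fabp4 was at 21.5, 24.1 and 234 CPM and Lpl at 127, 12.3 and 291 CPM in untreated adipogenic libraries 4, 5 and 6. Sp7, which specifies osteoblasts, averaged 0.182 ± 0.118 CPM (SD, n = 3) in untreated adipogenic and 100.2 ± 43.2 CPM in osteogenic progenitors. Schlafen genes are known mainly from blood cells, and of 14 leukocyte markers matched to genes, 4 were at 0 in all libraries of a group and 10 or 11 were below 1 CPM in all. Ptprc, which encodes CD45, averaged 0.0333, 0.0189 and 0.0195 CPM in untreated, treated and osteogenic libraries. Cd3g and Klrb1c were at 0 in all 9. Other markers had reads. Cd68 averaged 10.3, 8.39 and 3.99 CPM in untreated, treated and osteogenic libraries. Cd14 averaged 10.2 CPM without IFNγ and 7.96 CPM with it. Lck was at 4.59, 1.02 and 0.674 CPM in untreated libraries 4, 5 and 6. With IFNγ Lck was higher within each number, at 6.27, 2.905 and 1.703 CPM. Ly6g had 0 counts in untreated libraries and 1, 62 and 11 in treated libraries 4, 5 and 6. The part of leukocytes in the Schlafen results was not tested. Summed over the 14, leukocyte markers were at 17.3 to 31.4 CPM without IFNγ, 18.8 to 24.3 CPM with it and 10.0 to 13.3 CPM in osteogenic libraries.

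IFNγ-treated adipogenic progenitors had more Schlafen RNA than untreated ones. The 7 members together made 55.7, 20.6 and 108 CPM in untreated libraries 4, 5 and 6, and 309, 339 and 506 CPM in treated ones. Slfn1, Slfn2, Slfn4, Slfn5, Slfn8 and Slfn9 were higher in every treated library than in any untreated one, Slfn4 on no more than 3 counts a library, while the values of Slfn3 overlapped. Among the 5 members with enough counts for the test, 4 thus separated upwards, as did 10.2% of all 15098 genes tested. In the test Slfn9 rose, and Slfn2, Slfn3, Slfn5 and Slfn8 did not pass when libraries were treated as unpaired. Over all genes tested, 2.01% rose and 0.245% fell in that fit. Treated and untreated libraries of the same number deviated together from their group means across genes (correlations of 0.762 to 0.770), so the fit was repeated over the 6 adipogenic libraries with the number as a block. With this pairing Slfn2, Slfn5, Slfn8 and Slfn9 rose, against 8.61% of all 14705 genes tested that rose and 8.02% that fell. In bulk RNA, more cells with a transcript and more RNA per cell cannot be told apart.

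**Figure D1:**
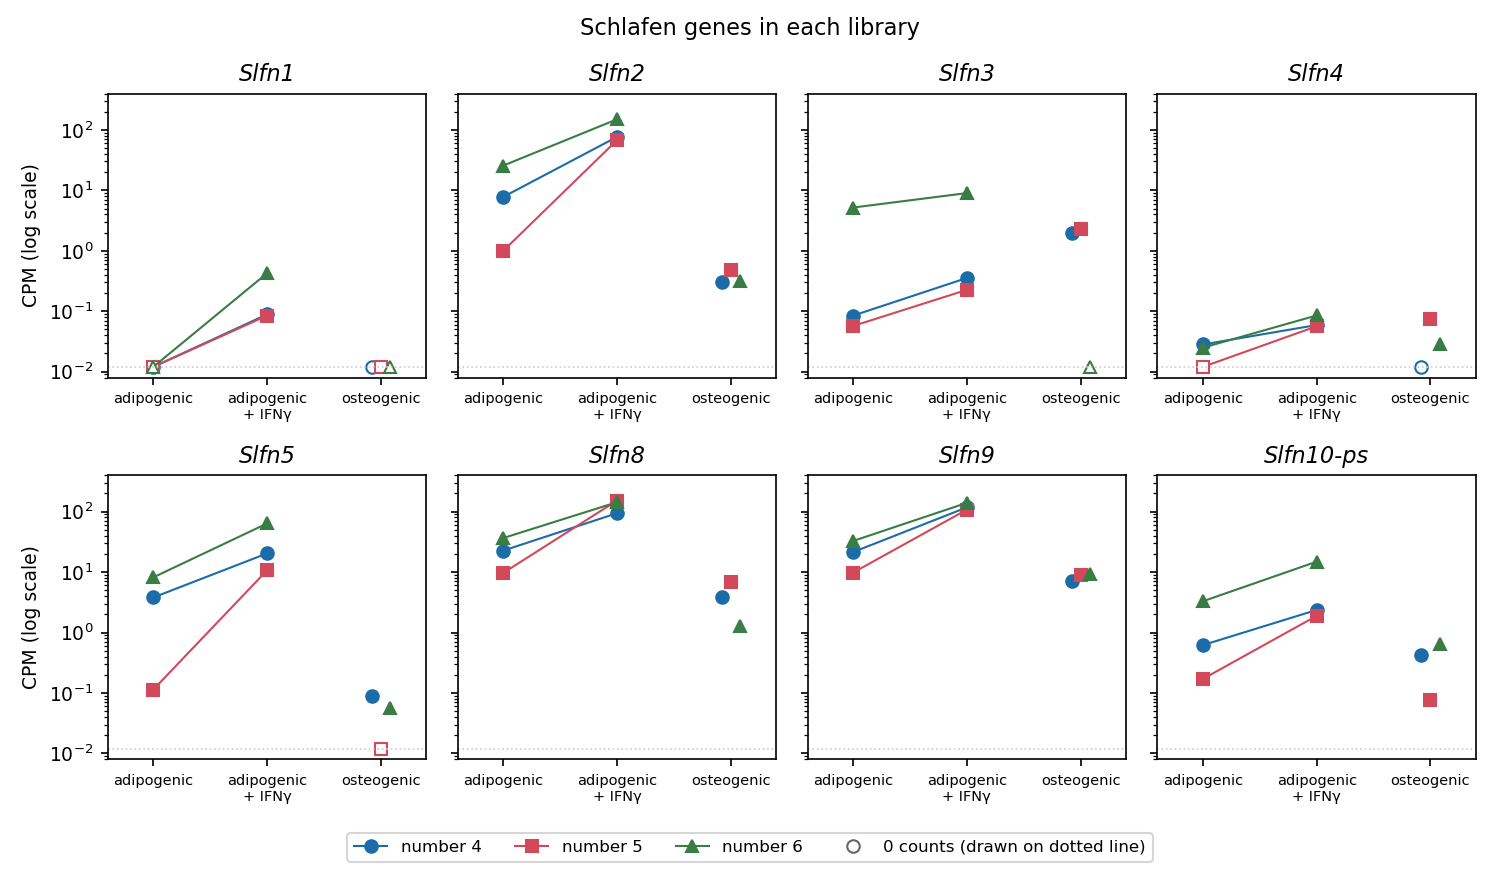
CPM on a log scale of the 7 members and of the pseudogene Slfn10-ps in each of the 9 libraries, by group. Lines join treated and untreated adipogenic libraries with the same number, and open symbols on the dotted line are libraries with 0 counts. For Slfn2, Slfn5, Slfn8 and Slfn9 all treated symbols lie above all untreated ones, and all osteogenic ones below. In Slfn5 the highest osteogenic and the lowest untreated symbol stand for 3 and 4 counts.

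Among the short members, Slfn2 is the one whose loss in mice costs T cells their quiescence, and its protein binds transfer RNA. It was at 7.77, 0.996 and 25.6 CPM in untreated libraries 4, 5 and 6 (11.5 ± 12.7, SD, n = 3). With IFNγ it was at 76.5, 67.5 and 149.6 CPM (97.9 ± 45). The untreated libraries thus differed among themselves by 25.7 times and the treated ones by 2.22 times, and no treated value reached down to an untreated one. Within a number, Slfn2 was higher with IFNγ by 9.84-fold in 4, 67.8-fold in 5 and 5.84-fold in 6. The fitted log2 fold change was 3.09 ± 0.92 (SE, adjusted p = 0.159) without pairing and 3.66 ± 0.66 (adjusted p = 0.0261) with the replicate block. Without 1 library the unpaired value ran from 2.55 (without untreated library 5) to 4.48 (without untreated library 6).

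Slfn1, whose forced expression halts the growth of thymocytes, was near the limit of detection. It had 0 counts in all untreated and all osteogenic libraries, and 3, 3 and 15 counts in treated libraries 4, 5 and 6. Taken over the group, it was at least 7.42-fold higher with IFNγ than without, against a floor of 3 counts over the untreated group, and the lower 95% counting limit was 5.52. Most counts came from treated library 6, without which these values were 3.20 and 1.88. Slfn1 did not pass the filter on low counts. In the fit without that filter its difference did not pass (adjusted p = 0.238).

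The long members Slfn8 and Slfn9 were close to each other in sequence and in level. Slfn9 was at 21.4, 9.79 and 32.7 CPM without IFNγ (21.3 ± 11.4) and at 118, 108 and 140 CPM with it (122 ± 16.3). Slfn8 was at 22.6, 9.68 and 36.6 CPM without IFNγ (23.0 ± 13.4) and at 94.2, 152 and 143 CPM with it (130 ± 31.3). In both genes the lowest treated library was well above the highest untreated one. Slfn9 rose by a log2 fold change of 2.51 ± 0.39 (adjusted p = 0.0134), or 2.64 ± 0.28 (adjusted p = 0.00821) with the replicate block. For Slfn8 the log2 fold change was 2.50 ± 0.63 (adjusted p = 0.102) without pairing, and with the block it rose by 2.61 ± 0.45 (adjusted p = 0.0228). The unpaired call of Slfn9 was lost without untreated library 4 (adjusted p = 0.0649), without treated library 6 (0.0538) and when the osteogenic libraries were left out of the fit (0.0696).

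Counts of Slfn8 and Slfn9 may be exchanged to a small extent, since their transcripts share stretches of a read's length. Of all runs of 75 bases in GENCODE M21 transcripts, 6.99% of those of Slfn8 and 5.90% of those of Slfn9 also occur in another gene, and these genes are each other and Slfn10-ps. The ratio of Slfn8 to Slfn9 counts was 1.06, 0.988 and 1.12 in untreated libraries 4, 5 and 6 and 0.80, 1.41 and 1.03 in treated ones. In osteogenic libraries it was 0.545, 0.756 and 0.139. The pair thus stood near equal counts in untreated adipogenic progenitors, spread on either side of that with IFNγ, and leaned to Slfn9 in every osteogenic library.

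Slfn5, a long and mainly nuclear member, was at 3.8, 0.114 and 8.18 CPM without IFNγ (4.03 ± 4.04). The lowest of these, library 5, rests on 4 counts. With IFNγ the values were 20.4, 10.7 and 63.7 CPM (31.6 ± 28.2). The groups did not overlap, although the highest untreated and the lowest treated library were close. The log2 fold change was 2.97 ± 1.18 (adjusted p = 0.297) without pairing and 3.25 ± 0.58 (adjusted p = 0.0254) with the replicate block. Without treated library 6 the unpaired value was 1.94, and without untreated library 6 it was 4.0. The transcripts of Slfn5 and Slfn2 are overlapped on the other strand by Slfn5os and Gm20234, neither of which is among the genes analysed here. The libraries were made with a directional kit, but the strand setting of the counting is not given in the sources used here, so reads of these partners may be included.

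The intermediate members gave few reads in most libraries. Slfn3 was carried by the libraries numbered 6: it had 3, 2 and 208 counts in untreated libraries 4, 5 and 6 and 12, 8 and 317 in treated ones. In CPM these were 0.0845, 0.0569 and 5.19 without IFNγ (1.78 ± 2.96) and 0.355, 0.226 and 9.0 with it (3.19 ± 5.03). Each treated library was above the untreated one of its number, by 4.2-fold in 4, 3.96-fold in 5 and 1.73-fold in 6, but the groups overlapped widely. The log2 fold change was 0.84 ± 1.99 (adjusted p = 0.914) without pairing and 1.14 ± 0.33 (adjusted p = 0.0743) with the block, and without treated library 6 the unpaired value was −2.61. Slfn4, an interferon-induced gene of myeloid cells, had 1, 0 and 1 counts without IFNγ and 2, 2 and 3 with it. The ratio was 3.71 (95% counting interval 0.706 to 36.6), so no difference was detectable at this depth, and in the fit without the filter the adjusted p was 0.679. Of all runs of 75 bases in Slfn4 transcripts, 3.12% also occur in other genes, among them Slfn2 and Slfn3. Reads of those genes may contribute to these few counts.

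**Figure D2:**
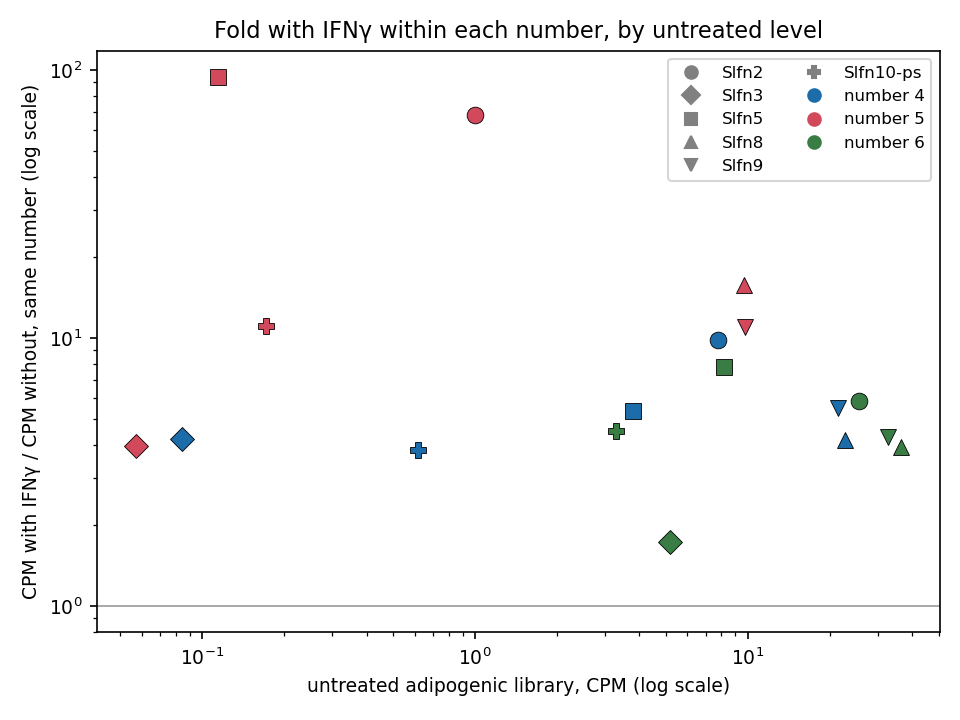
Fold of CPM with IFNγ over CPM without it for libraries of the same number (y axis, log scale), against the untreated CPM (x axis, log scale), for the 5 tested members and Slfn10-ps. All points lie above 1, and those of number 5 are the highest for Slfn2, Slfn5, Slfn8, Slfn9 and Slfn10-ps. The untreated value is in both axes, so a downward slope is partly built in.

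The untreated libraries stood in the same order in every tested member. Library 5 was the lowest and library 6 the highest for Slfn2, Slfn3, Slfn5, Slfn8 and Slfn9, and for Slfn10-ps. That order was found in 15.8% of all genes tested, in 36.8% of the 304 genes that rose with IFNγ, and in 2 of the 18 interferon signalling genes listed further down. The adipocyte marker Lpl had it too in the untreated libraries, and its part in the order was not tested. Stat2, by contrast, was at 132, 133 and 184 CPM in untreated libraries 4, 5 and 6. With IFNγ, Slfn2, Slfn3, Slfn5 and Slfn9 kept library 5 lowest and library 6 highest, whereas for Slfn8 library 4 was lowest and library 5 highest. The 5 members share libraries, so these orders are a description of 3 samples.

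Differences between untreated libraries were wide in the members and narrowed with IFNγ. The highest library exceeded the lowest by a median of 25.7 times over the 5 tested members without IFNγ and by 2.22 times with it. The ratio fell from 71.9 to 5.95 in Slfn5, from 3.78 to 1.62 in Slfn8, from 3.34 to 1.30 in Slfn9 and from 91.2 to 39.9 in Slfn3. Untreated library 5, the lowest, had only 4 counts of Slfn5 and 2 of Slfn3, so the untreated ratios of these genes are uncertain. Over all genes tested the median ratio was 1.51 without and 1.52 with IFNγ, and over the 304 genes that rose it was 1.56 and 1.43. The test that picked the 304 favours genes with a small spread within groups. Their ratios are thus low in part by that choice and give no yardstick for the members. The spread was narrower with IFNγ in all 5 members, in 58.9% of the genes that rose and in 47.8% of all genes.

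Osteogenic progenitors had less Schlafen RNA than untreated adipogenic ones. The 7 members summed to 13.3, 18.8 and 11 CPM in osteogenic libraries 4, 5 and 6, each below the lowest untreated adipogenic sum of 20.6 CPM. Slfn2, Slfn5, Slfn8 and Slfn9 were lower in every osteogenic library than in any untreated adipogenic one, a separation seen downwards in 15.9% of all genes tested and upwards in 15.0%. For Slfn5 the closest libraries had 3 counts (osteogenic library 4) and 4 counts (untreated library 5), too few to tell them apart. In the test Slfn2 alone fell, while 3.19% of all genes fell and 1.98% rose. This comparison uses the same untreated libraries as that of IFNγ, so the direction of a member in one is not independent of its direction in the other.

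Slfn2 was at 0.302, 0.489 and 0.311 CPM in osteogenic libraries (0.367 ± 0.106), on 10, 13 and 11 counts. All lay below the 0.996 CPM of the lowest untreated adipogenic library. The log2 difference, osteogenic minus untreated adipogenic, was −4.97 ± 1.10 (adjusted p = 0.0422). This call was lost in 8 of the 9 fits without 1 library (adjusted p up to 0.147), and it was kept without untreated adipogenic library 5 (0.00867), where Slfn5, Slfn8 and Slfn9 passed as well.

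Slfn5 was almost absent from osteogenic progenitors, with 3, 0 and 2 counts against 135, 4 and 328 in untreated adipogenic ones. Its log2 difference was −6.19 ± 1.61 (adjusted p = 0.0670), a fitted value that rests on these few counts. The ratio of the group sums, with the libraries' sizes taken into account, was 0.0125 (95% counting interval 0.00403 to 0.0293). That interval covers counting error only and leaves out the wide differences between the untreated libraries. Slfn8 was at 3.84, 6.88 and 1.30 CPM (4.01 ± 2.80), a log2 difference of −2.53 ± 0.64 (adjusted p = 0.0611). Slfn9 was at 7.04, 9.10 and 9.35 CPM (8.50 ± 1.27), a log2 difference of −1.33 ± 0.38 (adjusted p = 0.0857). Its osteogenic values were the most even of the members and came within 1 CPM of the lowest untreated adipogenic library, at 9.79.

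Slfn3 had 66 and 60 counts in osteogenic libraries 4 and 5 and 0 in library 6, or 1.99, 2.26 and 0 CPM (1.42 ± 1.23). Library 6 thus had no Slfn3 reads here, while library 6 of each adipogenic group had nearly all of that group's reads, although the numbers do not pair osteogenic with adipogenic libraries. Its log2 difference was −0.34 ± 2.00 (adjusted p = 0.938) and turned to 4.25 without untreated adipogenic library 6. Slfn4 had 0, 2 and 1 counts and Slfn1 had none.

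**Figure D3:**
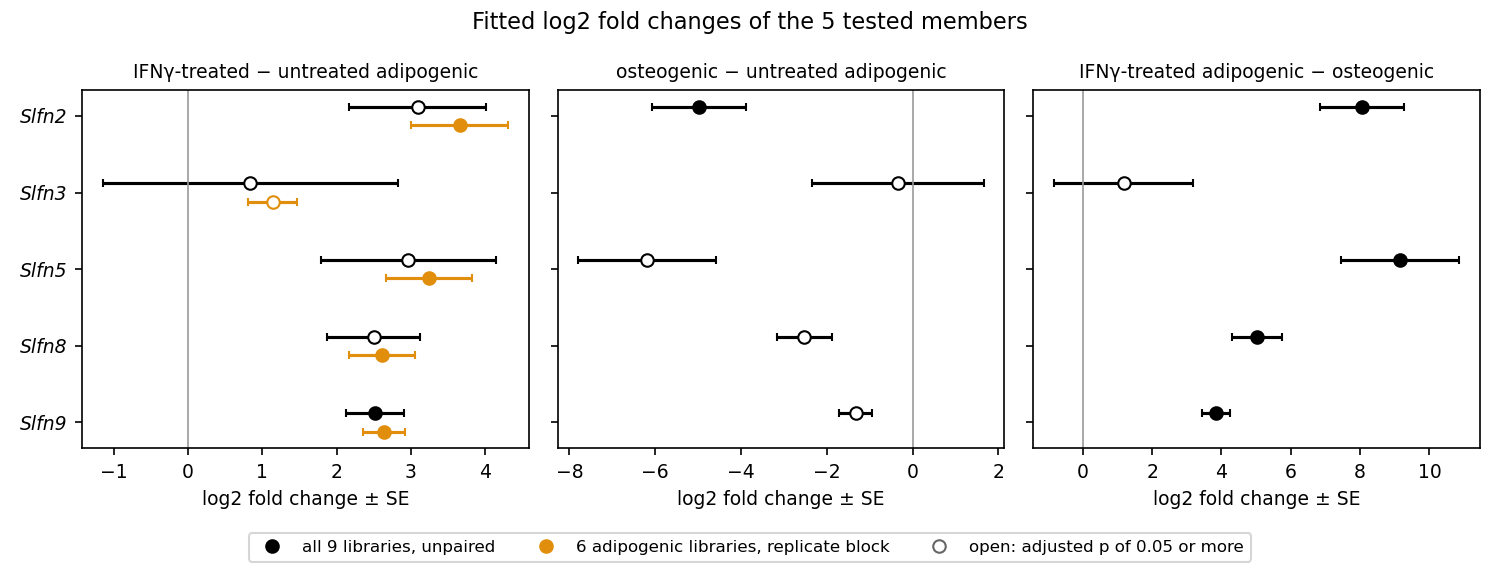
Fitted log2 fold changes (x axis) with SE for the 5 tested members in each pair of groups, over all 9 libraries unpaired (black) and over the 6 adipogenic libraries with the replicate block (orange). Filled points have an adjusted p below 0.05. Slfn2, Slfn5 and Slfn8 are open in black and filled in orange with IFNγ, and Slfn3 is open throughout.

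The widest differences were those between IFNγ-treated adipogenic and osteogenic progenitors. Slfn2, Slfn5, Slfn8 and Slfn9 rose, against 9.20% of all genes tested that were higher in treated adipogenic libraries and 7.52% that were lower. Slfn1 joined them in showing no overlap, which 19.7% of all genes tested showed in this direction. Slfn2 differed by a log2 fold change of 8.07 ± 1.21 (adjusted p = 0.00417) and Slfn8 by 5.03 ± 0.71 (0.00311). Slfn9 differed by 3.84 ± 0.41 (0.000873) and Slfn5 by 9.15 ± 1.71 (0.0101), the last on 3314 counts against 5. Slfn3 did not pass, with 1.18 ± 2.02 (0.735). Slfn1 was at least 6.37-fold higher, with a lower 95% counting limit of 4.74, or 2.74 and 1.62 without treated library 6, and it did not pass in the fit without the filter (0.0917). For Slfn4 the ratio was 2.12 (95% counting interval 0.485 to 12.7). On the log2 scale each fitted value here is that with IFNγ minus that of osteogenic against untreated adipogenic progenitors. The comparisons share libraries, so these differences are not separate evidence.

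Over the 5 tested members the median log2 difference was 2.51 with IFNγ, −2.53 in osteogenic against untreated adipogenic progenitors and 5.03 in treated adipogenic against osteogenic ones. The medians of all genes tested were −0.02, −0.02 and 0.03. Ranked by log2 fold change with IFNγ among all 15098 genes, Slfn2 was 158th, Slfn5 169th, Slfn9 222nd, Slfn8 226th and Slfn3 1024th.

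Levels of different members were compared per exonic length, as CPM per kilobase (RPKM). In untreated adipogenic progenitors Slfn2 was at 6.89 ± 7.65 RPKM, Slfn8 at 5.61 ± 3.29 and Slfn9 at 4.51 ± 2.42, and their libraries overlapped. Slfn3 (0.979 ± 1.63) and Slfn5 (0.911 ± 0.913) followed, and they too overlapped. With IFNγ Slfn2 led at 58.8 ± 27.1 RPKM, and its lowest library (40.6) was above the highest of Slfn8 (37.2). Slfn8 at 31.8 ± 7.65 RPKM and Slfn9 at 25.8 ± 3.46 overlapped. Slfn5 at 7.14 ± 6.38 RPKM did not reach Slfn9 in any library, and Slfn3 followed at 1.76 ± 2.77, overlapping Slfn5. In osteogenic progenitors Slfn9 led at 1.8 ± 0.268 RPKM, and its lowest library (1.49) was below the highest of Slfn8 (1.68). Slfn8 averaged 0.979 ± 0.684 RPKM, with Slfn3 at 0.780 ± 0.680, Slfn2 at 0.221 ± 0.0634 and Slfn5 at 0.0111 ± 0.0103. Slfn3 overlapped both Slfn8 and Slfn2, and Slfn4 was below 0.1 RPKM and Slfn1 at most 0.107 RPKM in every group mean. Slfn2 has the shortest exonic length of the members in the table, 1664 bases, and Slfn9 the longest, 4726. In CPM, where length is left in, the means of Slfn8 and Slfn9 were above that of Slfn2 in both adipogenic groups, by less than the SD of Slfn2, and in treated library 6 Slfn2 was the highest.

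The make-up of the Schlafen reads differed between groups, which is given here without a test. Slfn2 gave 13.9, 4.83 and 23.7% of the members' counts in untreated libraries 4, 5 and 6 and 24.7, 19.9 and 29.6% in treated ones. Its share was above the untreated library of the same number each time. In osteogenic libraries it gave 2.28, 2.60 and 2.81%, below every adipogenic library. Slfn9 gave 53.1, 48.4 and 84.7% there, above its 27.6 to 47.4% in all 6 adipogenic libraries.

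**Figure D4:**
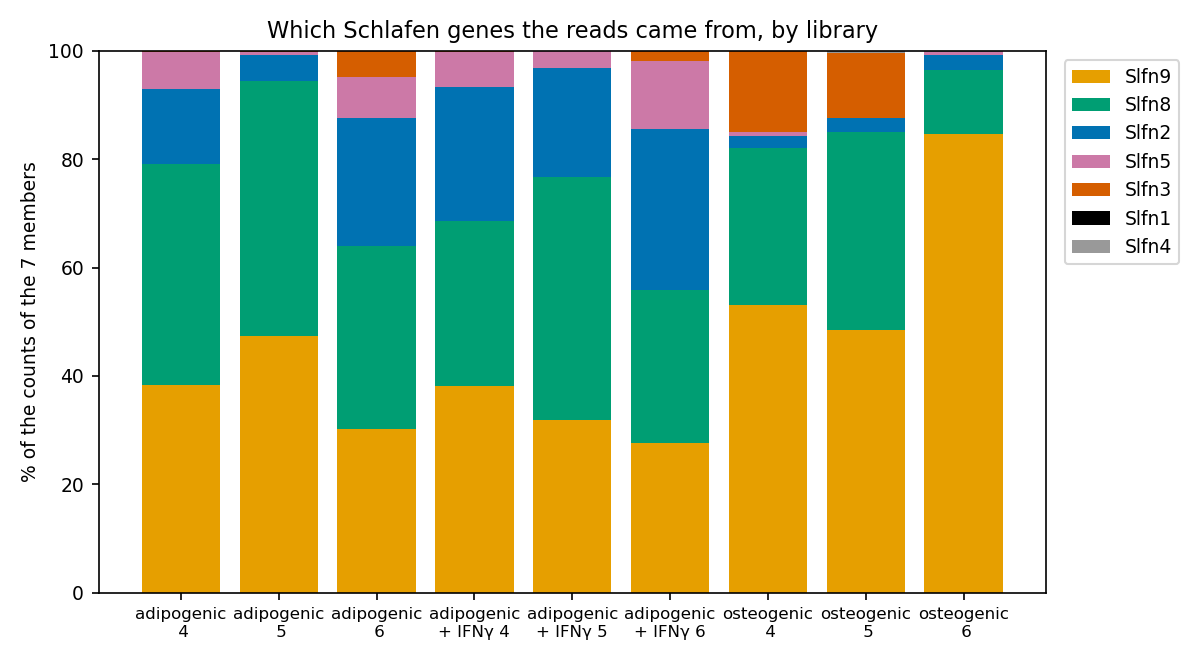
Share of the counts of the 7 members that each member gave (y axis, %), with 1 bar per library. Slfn8 and Slfn9 fill most of each bar, Slfn2 is wider in each treated adipogenic bar (19.9 to 29.6%) than in the untreated bar of the same number, and Slfn3 is visible in adipogenic libraries 6 and in osteogenic libraries 4 and 5.

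Slfn2, Slfn5, Slfn8 and Slfn9 followed each other across the 9 libraries. On log2 CPM with a prior count of 1, their pairs correlated at 0.906 (Slfn5 with Slfn8) to 0.975 (Slfn2 with Slfn5), whereas Slfn3 correlated with the others at 0.281 to 0.381. The libraries fall into 3 groups, so most of this likeness is the difference between groups. After the group means were taken out, Slfn2 still correlated with Slfn9 at 0.974 and with Slfn5 at 0.871, while Slfn5 and Slfn8 correlated at 0.391. Slfn3 then correlated with the others at 0.464 to 0.782 and did not stand apart.

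Genes outside the family were ranked for each member by Pearson's r over the same 9 libraries. Slfn2 was most like Oas1g (r = 0.991), Lmo2 (0.988) and Trim14 (0.984), and Slfn5 was most like Oas1g (0.979), Sp140 (0.974) and Lmo2 (0.972). Lmo2 averaged below 1 CPM in every group. For Slfn8 these were Trim34a (0.989), Uba7 (0.980), the enzyme that activates the ubiquitin-like Isg15, and Oas2 (0.980). For Slfn9 they were H2-Q6 (0.995), Nmi (0.992) and H2-T23 (0.990), of which H2-Q6 and H2-T23 are non-classical MHC class I genes. Slfn3 had weaker matches in Tbxas1 (0.900), Impa2 (0.889) and Slc25a45 (0.886), none of which followed the groups as the other matches did. Impa2, for example, averaged 9.36, 9.55 and 8.69 CPM in untreated, treated and osteogenic progenitors.

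The pseudogene Slfn10-ps, between Slfn8 and Slfn2, had a pattern like that of its neighbours at a lower level. It was at 0.620, 0.171 and 3.29 CPM in untreated libraries 4, 5 and 6 and at 2.36, 1.89 and 14.9 CPM in treated ones. The groups overlapped, but each treated library was above its untreated partner, by 3.82-fold, 11.1-fold and 4.52-fold. The log2 fold change was 2.22 ± 1.21 (adjusted p = 0.480) unpaired, and with the replicate block it rose by 2.34 ± 0.30 (adjusted p = 0.0103). Of its runs of 75 bases, 11.5% also occur in Slfn8 or Slfn9, whose reads may contribute to its counts. Slfn14, listed as a pseudogene in the table, had 1 count in all 9 libraries, and the distant relative Slfnl1 on chromosome 4 had 1 to 8 counts per library in every group.

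None of the genes next to the cluster passed the test. Of 6 neighbours that could be matched, 4 were tested, in all 3 comparisons and with the block. Nle1, on the side of Slfn5, averaged 21.0 ± 2.20, 24.1 ± 3.09 and 20.02 ± 1.75 CPM in untreated, treated and osteogenic progenitors. On the side of Slfn3 and Slfn14, the clathrin adaptor gene Ap2b1 averaged 159 ± 20.7, 164 ± 25.8 and 175 ± 14.0 CPM. The DNA repair gene Rad51d (Rad51l3 in the table) averaged 27.1 ± 3.86, 24.9 ± 4.95 and 22.9 ± 1.06 CPM. Unc45b and Rasl10b were below 1 CPM and not tested.

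**Figure D5:**
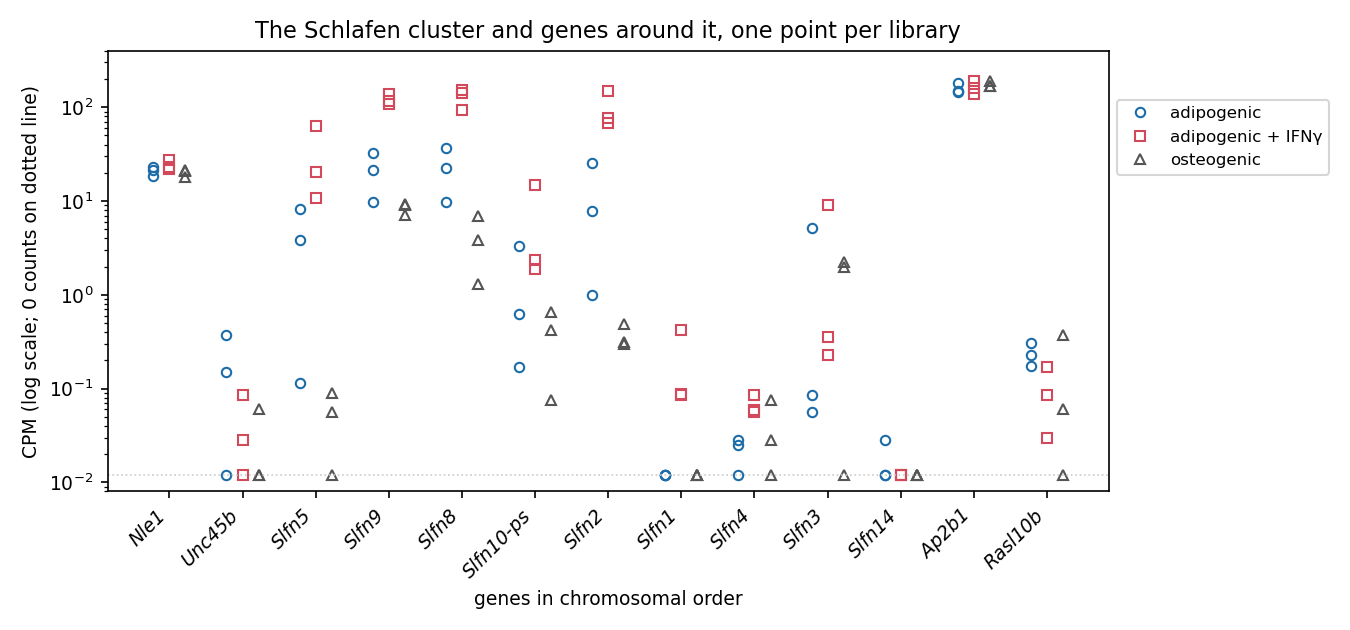
CPM on a log scale in each library for the Schlafen cluster and 4 genes around it, in chromosomal order from left to right and not to distance. Libraries with 0 counts are drawn on the dotted line. Treated libraries lie above all untreated and osteogenic ones for Slfn5, Slfn9, Slfn8 and Slfn2, while the group means lie between 20.02 and 24.1 CPM for Nle1 and between 159 and 175 CPM for Ap2b1.

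Interferon signalling genes were described beside the members. Of 18 genes of interferon receptors, kinases, transcription factors and feedback, 10 rose with IFNγ, 7 did not pass and 1 fell, the receptor chain gene Ifngr2 (128 ± 19.4 to 64.5 ± 16.9 CPM, adjusted p = 0.0398). Stat2, which type I interferon activates, went from 150 ± 29.5 to 766 ± 76.2 CPM (adjusted p = 0.00045). Irf1, an interferon-induced transcription factor gene, went from 53.6 ± 9.73 to 790 ± 137 CPM (adjusted p = 9.29e-05). Irf8 went from 0.177 ± 0.153 to 75.2 ± 41.2 CPM (0.00141), the feedback inhibitor gene Socs1 from 3.07 ± 0.614 to 87.3 ± 44 CPM (0.00127) and Stat3 from 125 ± 7.95 to 300 ± 54.4 CPM (0.00461). Irf9 was at 83.7 ± 12.1 and 124 ± 27.1 CPM (adjusted p = 0.209, or 0.0244 with the block).

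In osteogenic against untreated adipogenic progenitors, 5 of these 18 genes fell and 1, Socs3, rose. Among those that fell were Stat2, to 29.2 ± 3.04 CPM (adjusted p = 0.00104), Irf9, to 19.9 ± 2.88 CPM (0.00223), Irf7, to 3.67 ± 0.872 CPM (0.00102), and Usp18, to 1.44 ± 0.462 CPM (0.000658). Like Slfn2, Slfn5, Slfn8 and Slfn9, these 4 genes had no osteogenic library as high as an untreated adipogenic one. Genes that fell in the test are likely to separate in this way. Of the 18, 8 separated downwards and 3 upwards, against 15.9% and 15.0% of all genes tested. Irf1 was at 41.4 ± 5.13 CPM in osteogenic libraries (adjusted p = 0.280). It separated too, but narrowly, with 45.5 CPM in the highest osteogenic and 45.7 CPM in the lowest untreated library. Between treated adipogenic and osteogenic libraries 12 of the 18 were higher and 2 lower.

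Schlafen genes have been tied to growth arrest, and cell cycle genes were therefore listed beside them. Of 18, none passed with IFNγ unpaired, and with the block 13 rose and 1, Cdkn1a, fell. Mki67, which marks cycling cells, was at 30.8 ± 16.6 and 92.3 ± 43.4 CPM without and with IFNγ (adjusted p = 0.188, or 0.0161 with the block), and Top2a at 66.2 ± 35.0 and 236 ± 113 CPM (0.121, or 0.00681 with the block). Cdk6 was at 5.57 ± 2.62 and 23.1 ± 9.03 CPM (0.0851, or 0.00226) and Ccna2 at 19.5 ± 6.67 and 53.8 ± 17.5 CPM (0.0959, or 0.0308). Ccnd1 was at 328 ± 130 and 405 ± 130 CPM (0.811). In osteogenic against untreated adipogenic progenitors Ccnd2 fell and the other 17 did not pass. Treated adipogenic libraries had more Ccne1 and Cdk4 than osteogenic ones.

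Slfn2 protein protects transfer RNA from cleavage in T cells, and 5 genes of transfer RNA cleavage and methylation were looked at for that reason. None passed with IFNγ, with or without the block. The nuclease gene Ang averaged 3.56 ± 1.30, 2.83 ± 1.08 and 6.56 ± 1.22 CPM in untreated, treated and osteogenic progenitors. The methyltransferase gene Nsun2 averaged 122 ± 3.07, 151 ± 18.1 and 126 ± 15.2 CPM. Rnh1, which encodes an inhibitor of such nucleases, was at 256 ± 29.0 and 279 ± 53.8 CPM without and with IFNγ and fell to 135 ± 11.3 CPM in osteogenic progenitors (adjusted p = 0.0236).

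Markers of other cell types were set beside the members. None of the 5 tested leukocyte markers passed in any comparison. Of 4 endothelial markers, Pecam1, Cdh5 and Tek were below 1 CPM in every library, while Kdr moved with the members, at 12 ± 4.74, 39.4 ± 16.5 and 1.73 ± 0.573 CPM in untreated, treated and osteogenic progenitors (adjusted p = 0.0901 with IFNγ unpaired and 0.0146 for osteogenic against untreated). With the block, 1 of the 2 tested endothelial markers rose with IFNγ. Within numbers 4, 5 and 6 the folds with IFNγ were 3.10, 2.48 and 4.33 for Kdr and 0.888, 1.45 and 0.924 for Tek. The 4 endothelial markers summed to 9.19 to 17.8, 22.2 to 54.4 and 1.67 to 2.63 CPM, and the part of such cells in the Schlafen results was not tested. Of 3 erythroid and megakaryocyte markers 1 was tested and did not pass. Stromal markers did not pass with IFNγ unpaired, fell in 4 of 9 tested with the block, rose in 2 of 10 in osteogenic against untreated progenitors and were lower in 3 of 10 in treated adipogenic against osteogenic ones. Adipocyte and osteoblast markers did not pass with IFNγ. The 4 adipocyte markers summed to 36.5 to 525 CPM without IFNγ, 35.9 to 282 CPM with it and 11.3 to 37.5 CPM in osteogenic libraries. In osteogenic against untreated progenitors 1 of 2 tested adipocyte markers, Lpl, fell (adjusted p = 0.0435) and 3 of 4 osteoblast markers rose. The part of such cells in the Schlafen results was not tested.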

How the data were processed

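The deposited values were whole-number read counts per Ensembl gene, 1 column per library, with exon number and exonic length. Of tools and builds, bedtools 2.11, CASAVA 1.8.0 and mm9 are listed in the submitters' processing notes. What aligned and counted the reads, and with which strand setting, is not given in the sources used here. Titles and the design text gave the groups. The design calls the libraries biological replicates without saying of what, so a p-value reflects the spread between these libraries alone, which may be technical.

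The counts were analysed with edgeR 4.0.16 (R 4.3.3). Genes were filtered with filterByExpr by group (15098 of 24186 kept) and scaled with TMM. A robust quasi-likelihood model with the group alone was fitted to all 9 libraries, the common biological coefficient of variation being 0.378. Tests were two-sided, with Benjamini-Hochberg adjustment over all genes tested, at 0.05. The SE is the log2 fold change over the square root of F. The method was tried on simulated counts with less spread between libraries than found here and no pairing. That trial does not show how the method performs on these libraries. With 3 libraries a group, 0.1 is the smallest two-sided p of an exact permutation test. Counting intervals are exact and at 95%. Totals, floors and counting intervals cover counting error only.

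Whether the numbers pair libraries was judged over all genes tested. Deviations from group means correlated at 0.762 to 0.770 where a treated and an untreated adipogenic library had equal numbers. Where they had not, the correlations were −0.460 to −0.272. A gene's deviations within a group sum to 0, so these negative values follow from the positive ones and are not separate evidence. Osteogenic libraries correlated with their numbers at −0.0541 to 0.0524. The numbers therefore pair the adipogenic groups only, from the data and not from the labels. No 2 libraries of a group agreed within sampling noise.

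The members, lists, markers and tests were chosen with earlier results of these data known. Values are given for the members, Slfn10-ps, Slfn14, Slfnl1, Stat2, Irf1, Irf9, the neighbours, Ccnd1, Mki67, and up to 3 more per list with the smallest adjusted p with IFNγ and at least 1 CPM. Results for some other genes that this rule takes are not reported here. Ifngr2, Irf7, Usp18, Socs3, Ccnd2, Ccne1, Cdk4, Cdkn1a, Kdr, Lpl and Fabp4 were named after their values were seen. So were Lepr, Nt5e, Eng, Cd68, Cd14, Lck and Ly6g. Similar genes are the 3 with the highest Pearson r per tested member, leaving out predicted genes. Fndc8, Emr1, Tyrobp, Cd3e, Cd8a, Ms4a1 and Hbb-b1 were not matched and are not analysed here. Promoters of all 7 members were matched in RefSeq (GRCm38.p6) and aligned with Biopython 1.88. Alternatives were DESeq2 1.42.0, limma-voom (limma 3.58.1), upper-quartile scaling, no filter, only the 6 libraries compared, replicate blocks and leaving out each library. The values of Slfn1 without single treated libraries were added after the data were seen.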

Additional observations from a re-analysis of the deposited data

How the results depend on the processing

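With IFNγ, 1 of the members and 341 genes passed. DESeq2 passed 3 and 1068, limma-voom passed 2 and 392, and the fit of only the 6 libraries passed 0 and 178. Pairing moved these counts most: the replicate block over the 6 adipogenic libraries passed 4 members and 2446 genes, and a block of the adipogenic libraries within all 9, chosen after seeing the data, passed 4 and 1631. A block over all 9, which also pairs osteogenic libraries, passed 1 and 474. Without 1 library, 0 to 1 members and 194 to 278 genes passed. In osteogenic against untreated adipogenic progenitors 1 member and 780 genes passed. DESeq2 passed 4 and 2226, the block over all 9 passed 2 and 1244, and 0 members passed with no filter (607 genes), limma-voom (696) and only the 6 libraries (523). Without 1 library, 0 to 4 members and 159 to 771 genes passed. In treated adipogenic against osteogenic progenitors 4 members passed in every fit but limma-voom (3, with Slfn5 at adjusted p = 0.0759), against 2525 genes, 3830 with DESeq2 and 1312 to 2474 without 1 library. Slfn2, Slfn5, Slfn8 and Slfn9 kept their direction in every fit run. Slfn3 did not: with IFNγ it ran from −2.61 (without treated library 6) to 5.42 without 1 library. For osteogenic against untreated it was 0.041 with limma-voom, 2.95 with the block over all 9, and −0.90 to 4.25 without 1 library, above 0 without untreated library 6 (4.25) or osteogenic library 6 (0.26). For treated against osteogenic it was −1.84 with that block and −2.27 (without treated library 6) to 1.72 without 1 library. The cause was not tested. DESeq2 gave Slfn3 no adjusted p, and the filter on only 6 libraries left Slfn5 untested in osteogenic against untreated. The count filter left out Slfn1 and Slfn4, at no more than 15 counts per library. Without it neither passed in any comparison.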
